A study of Caenorhabditis elegans with 2 samples.

Results

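The genes for the proteins of the cytosolic ribosome were examined in a ChIP-seq study of the transcription factor MED-1 in Caenorhabditis elegans embryos. The set held every nuclear protein-coding gene whose name in the Ensembl annotation starts with rps- or rpl- followed by a digit. It came to 78 of 19973 nuclear protein-coding genes, 31 for the small subunit (rps-) and 47 for the large subunit (rpl-). They lay on all 6 chromosomes, with 23 on I, 10 on II, 18 on III, 17 on IV, 8 on V and 2 on X. The choice was by name only, and no measured value enters it.

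The worms were hermaphrodite embryos of mid embryogenesis, taken whole, of the strain OP391. The strain carries unc-119(ed3) III and the transgene wgIs391, in which med-1 is fused to TY1 EGFP FLAG C and which also holds unc-119(+), the rescue of that mutation. The tagged protein was precipitated with an antibody to GFP. There was 1 group of 2 biological replicates, with no second genotype, stage or treatment, and the named control experiment was not analysed here.

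Ribosomal protein genes are among the most actively transcribed genes of growing cells, and their products are needed in about equal amounts. In C. elegans many of them sit in compact neighbourhoods, some within operons, in which several genes are transcribed from a shared upstream promoter, and some carry small nucleolar RNA (snoRNA) genes, whose products guide the modification of ribosomal RNA. MED-1 is a GATA-type zinc finger factor that specifies the mesendoderm of the early embryo.

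A peak was tied to a gene when its summit lay within 2 kb of any annotated transcript start, and each gene was described by the strongest such summit. Peaks came from the authors' 4 lists on the genome build ce11: replicate 1 with 2401 peaks, replicate 2 with 30000, the pooled list with 30000, and the optimal list of 460, obtained with the irreproducible discovery rate (IDR). The lists of the replicates and of the pool include background, and ranks from lists of different length are not compared. A peak's signal is the authors' own value, rank 1 is the strongest peak of a list, and read depth is unknown.

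Of the 78 genes, 10 had an optimal peak within 2 kb, or 12.8% (exact binomial 95% interval 6.32 to 22.3%). The share over all protein-coding genes was 2.99%. Small subunit genes with such a peak were rps-28, rps-12, rps-20, rps-19 and rps-1, and large subunit genes were rpl-3, rpl-11.1, rpl-35, rpl-15 and rpl-20. All 10 summits lay upstream of the gene, as did those of 456 of the 598 genes with an optimal summit (76.3%), and 9 of the 10 lay 0 to 500 bp upstream, against 251 of the 598 (42.0%). With the distance limited to 500 bp, 9 members (11.5%) had an optimal summit, against 1.42% of all genes. Intervals here cover the number of genes only, since the genes of a set are not replicates and neighbours can share a peak.

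The sequence under these summits is shown for 6 of the genes, 201 bases centred on the summit and read along the gene's strand. Capitals mark 7 words of 6 letters, on either strand, which occurred in at least 5 of the 10 member windows and in under 15% of windows of equal width over all genes. The first 4 windows hold the word TACGGT and the last 2 do not. The windows of rps-19, rps-20, rps-12 and rpl-11.1 are not shown, and of these only that of rps-20 holds it. The 6 shown thus do not give the share of the word among the 10.
rpl-3: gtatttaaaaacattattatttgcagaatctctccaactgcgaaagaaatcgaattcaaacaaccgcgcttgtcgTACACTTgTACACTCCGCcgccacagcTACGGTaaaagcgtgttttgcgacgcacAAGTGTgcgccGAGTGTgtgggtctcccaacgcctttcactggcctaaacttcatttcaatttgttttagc
rps-1: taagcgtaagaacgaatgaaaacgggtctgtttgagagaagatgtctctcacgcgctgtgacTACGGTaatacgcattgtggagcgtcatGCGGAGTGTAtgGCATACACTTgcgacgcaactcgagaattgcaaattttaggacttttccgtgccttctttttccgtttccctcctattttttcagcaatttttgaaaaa
rpl-15: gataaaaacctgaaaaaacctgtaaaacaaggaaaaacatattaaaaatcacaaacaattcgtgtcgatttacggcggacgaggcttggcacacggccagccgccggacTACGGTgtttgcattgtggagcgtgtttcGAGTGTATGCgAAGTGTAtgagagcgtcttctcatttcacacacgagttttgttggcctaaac
rpl-20: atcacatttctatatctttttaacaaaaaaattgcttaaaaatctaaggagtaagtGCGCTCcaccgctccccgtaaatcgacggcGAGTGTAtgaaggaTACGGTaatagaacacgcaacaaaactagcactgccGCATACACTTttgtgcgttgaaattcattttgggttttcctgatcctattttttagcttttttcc
rps-28: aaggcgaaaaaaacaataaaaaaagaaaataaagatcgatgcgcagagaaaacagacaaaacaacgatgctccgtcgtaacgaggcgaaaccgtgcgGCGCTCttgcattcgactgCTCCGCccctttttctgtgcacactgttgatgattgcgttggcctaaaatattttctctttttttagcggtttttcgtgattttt
rpl-35: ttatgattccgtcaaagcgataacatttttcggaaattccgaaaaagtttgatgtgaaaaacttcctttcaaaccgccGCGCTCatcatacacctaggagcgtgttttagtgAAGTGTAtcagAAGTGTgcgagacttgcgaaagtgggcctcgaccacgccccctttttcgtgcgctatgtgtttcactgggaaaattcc
On ce11 these are chrIII:3867465-3867665 for rpl-3 on the plus strand, chrIII:4475573-4475773 for rps-1 on the plus strand, chrIV:654855-655055 for rpl-15 on the minus strand, chrIV:4749981-4750181 for rpl-20 on the minus strand, chrIV:1659160-1659360 for rps-28 on the plus strand and chrIII:7854574-7854774 for rpl-35 on the plus strand.

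TACGGT stood in 5 of the 10 member windows. It was read in that direction along the gene strand each time, in rpl-3, rpl-15, rpl-20, rps-20 and rps-1, and its first base lay 2, 9, 0, 22 and -38 bp from the summit in that order. The windows for the other 68 members were placed 300 bp upstream of their starts, so no peak decided where they lay. Of these, 21 (30.9%) held TACGGT or its reverse complement, against 6.07% of 19973 windows placed the same way for all genes and 3.72% of the 430 other nuclear optimal summits. With all 78 members in start-anchored windows the count was 27 (34.6%), 9 in the small and 18 in the large subunit, and 6 of those 27 genes had an optimal peak. In start-anchored windows TACGGT thus stood upstream of 6 of the 10 members with an optimal peak and 21 of the 68 without. The word was picked from summit windows of those 10, so their count is a description. At the other optimal summits away from small RNA genes its share was 5.04%, close to that of all genes, though those windows were centred on summits.

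CTCCGC stood in 5 of the 10 member windows, in 2 of the 68 other members and in 4.77% of all genes, and in 14.9% of the other optimal summits. GAGCGC likewise stood in 5 of 10, in 3 of 68, in 3.44% of all genes and in 60 of the 430 other optimal summits. GCATAC stood in 5 of 10, in 2 of 68, in 3.73% of all genes and in 3.26% of the other optimal summits. AAGTGT stood in 6, in 9 of the 68 (13.2%), in 15.3% of the other optimal summits and in 12.9% of all genes. ACACTC stood in 5, in 12 of the 68 other members (17.6%), in 13.7% of the other optimal summits and in 6.67% of all genes, so that it too was more frequent in the other members than over all genes. AGTGTA stood in 5, in 3 of the 68, in 7.44% of the other optimal summits and in 7.42% of all genes. The last 3 words overlap in their letters when read on either strand. The 10 windows were centred on summits, unlike those of the 68 and of all genes, so these counts do not compare like windows. In start-anchored windows of the 10 genes, CTCCGC stood in 2, GAGCGC in 1 and GCATAC in 5. There AAGTGT stood in 4, ACACTC in 5 and AGTGTA in 4. The 7 words were picked from 2080 after these windows had been read, so their counts among the 10 are a description. The median G and C content was 42.8% in the 10 member windows, 44.3% at the other optimal summits and 40.8% at those away from small RNA genes, and 39.1% in the other members and 33.8% in all genes.

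The recognition sequence of MED factors, AGTATAC preceded by A or G, was searched on both strands and was found in 0 of the 10 member windows. It was found in 0 of the 68 other members, in 3 of the 430 other optimal summits and in 0.781% of all genes. GATA preceded by a base other than G and followed by A or G was in 1 of the 10, in 31.6% of the other optimal summits, in 35 of the 68 other members (51.5%) and in 46.0% of all genes. The Sp1 sequence, CCACCC or CCGCCC on either strand, was in 3 of the 10, in 25.8% of the other optimal summits, in 6 of the 68 and in 7.05% of all genes. An E2F sequence, TTNNCGC with C or G at both N, was in 1 of the 10, in 69 of the 430 other optimal summits, in 2 of the 68 and in 6.91% of all genes. A run of 8 T on either strand was in 2 of 10 member windows, in 14.7% of the other optimal summits, in 11 of the 68 and in 23.6% of all genes. The splice acceptor letters TTTCAG on the gene strand were in 1 of 10, in 8 of the 68 and in 18.2% of all genes. None of these motifs is contained in another, and a match or its absence is a description of the letters in these windows only. The windows of the 10 and of the other optimal summits were centred on summits, and the rest were start-anchored.

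The strongest peak stood 431 bp upstream of rps-28, in the intergenic sequence of chromosome IV. Its signal was 48.5 in replicate 1 (rank 115), 52.3 in replicate 2 (rank 126) and 98.9 in the pooled and optimal lists (rank 118). For rpl-3, whose protein reaches towards the peptidyl transferase centre, signal 289 bp upstream was 46.8 in replicate 1, 44.4 in replicate 2 and 89.6 in the pool (rank 141). Both genes were thus high in each replicate and had no other gene's start nearer to the summit.

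At rpl-35, which lies at the mouth of the peptide exit tunnel, the summit stood 460 bp upstream with 33.9 in replicate 1, 30.3 in replicate 2 and 62.3 in the pool (rank 243). At rpl-15, a core large subunit gene that holds 2 snoRNA genes, it stood 379 bp upstream with 32.7, 28.8 and 62.2 (rank 245). At rps-1, a small subunit gene, it stood 245 bp upstream with 22.6, 20.5 and 46.1 (rank 359), inside an exon of the non-coding RNA gene F56F3.10. In these 3 genes too the member's start was the nearest one, and the replicates stood close to each other. Genes on the opposite strand also started near 2 of these summits, K11H12.8 at 435 bp for rpl-15 and ifet-1 at 523 bp for rps-1. The lists cannot tell which start the rpl-15 summit belongs to.

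In the other 5 genes a gene on the opposite strand started nearer to the summit. At rps-12, which also holds 2 snoRNA genes, the summit was 158 bp upstream and 135 bp from ska-3, and the replicates stood furthest apart, with 38.0 in replicate 1 (rank 162) and 18.7 in replicate 2 (rank 945). At rps-20, of the head of the small subunit, it was 244 bp upstream and 153 bp from ekl-4, with 24.7 and 29.2. At rps-19, whose human counterpart is mutated in Diamond-Blackfan anaemia, it was 293 bp upstream and 152 bp from hsr-9, with 24.0 and 24.1. At rpl-20 it was 303 bp upstream and 159 bp from Y17G9B.5, with 20.8 in replicate 1 and 34.1 in replicate 2. These 4 summits lay in the intergenic stretch between 2 divergent genes, and the lists cannot tell which start they belong to.

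The peak assigned to rpl-11.1 was of another kind. Its summit lay 1761 bp upstream of the gene, in an intron of T22F3.2 and 199 bp from the start of that gene, with signal 39.4 in replicate 1, 47.2 in replicate 2 and 83.2 in the pool (rank 156). It was the member just inside the 2 kb limit. Just outside were rps-11, with an optimal summit at 2444 bp (signal 70.2, rank 199), and rps-0, with one at 3153 bp (signal 57.2, rank 281). When each summit was given to its nearest start only, 5 members kept an optimal peak, against 1.72% of all genes.

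**Figure D1:**
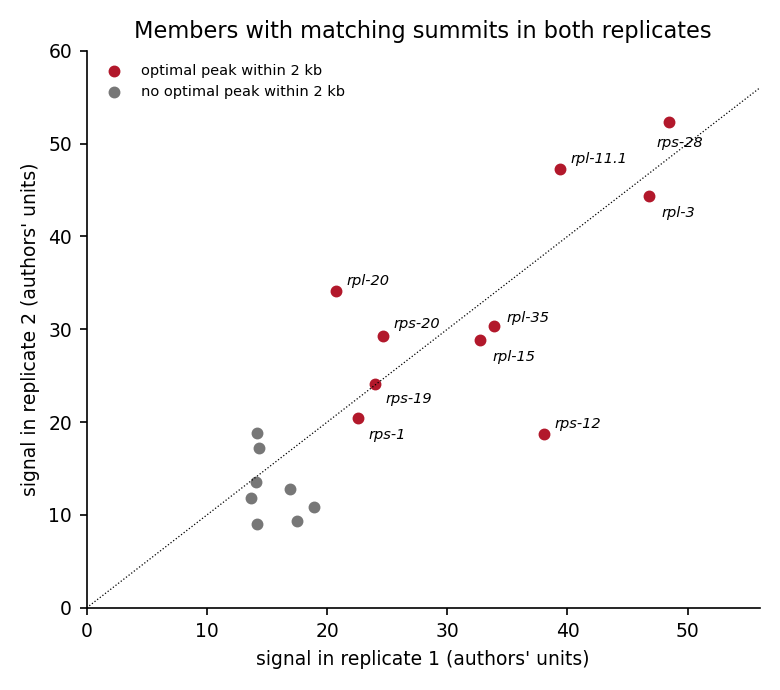
Signal in replicate 1 (horizontal axis) and replicate 2 (vertical axis), in the authors' units, for the 18 ribosomal protein genes whose strongest summits in the replicates lay at most 200 bp apart. Red points are the 10 genes with an optimal peak, grey points the others, and the dotted line marks equal values; rps-12 stood below it, with 38.0 and 18.7.

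The summits of the 10 genes in replicate 1 and replicate 2 were 4 to 56 bp apart, which is a description, since the optimal list was made by comparing the replicates. Among the 28 members with a summit in both replicates, the strongest summits were at most 200 bp apart in 18 (64.3%), against 1012 of 2138 genes (47.3%), and the 10 genes with an optimal peak are among those 18. Of the 18 members with a summit in both replicates and no optimal peak, 8 (44.4%) had them at most 200 bp apart, against 476 of 1573 genes without an optimal peak (30.3%). In these 8 genes signal ran from 13.7 to 18.95 in replicate 1 and from 9.05 to 18.9 in replicate 2. The order of the 8 differed between the replicates: rpl-7A was the highest in replicate 1, with 10.8 in replicate 2, and rps-26 was the highest in replicate 2, with 14.2 in replicate 1.

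The median distance of the optimal summit was -298 bp over the 10 members and -248.5 bp over the 598 genes, negative values being upstream. None of the 10 summits lay within 200 bp of a small RNA gene, whereas 180 of the 598 genes (30.1%) had such a summit. In signal the members were ordinary for the optimal set, with a median of 61.6 against 63.9 over the 460 peaks, and no member was among the 100 strongest peaks of any list. The deposited q-value score reached 2 in 3 of the 10, and in 196 of the 460 optimal peaks.

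Beyond the optimal list, summits were found near most members, as they were near most genes. In the pooled list 72 of 78 members (92.3%, interval 84.0 to 97.1%) had a summit within 2 kb, against 73.6% of all genes. In replicate 2 it was 74 (94.9%) against 74.4%. The shorter list of replicate 1 gave 28 members (35.9%, interval 25.3 to 47.6%) against 11.9%. When the 2401 strongest peaks were taken from each list, replicate 2 gave 32 members (41.0%) against 12% of all genes, and the pool gave 40 (51.3%) against 12.5%. The share among members was above that of all genes in each list. The ratio of the shares was larger for the 2401 strongest peaks than for the full lists of replicate 2 and the pool. In those full lists most genes already had a summit, which keeps the ratio low whatever the members do.

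**Figure D2:**
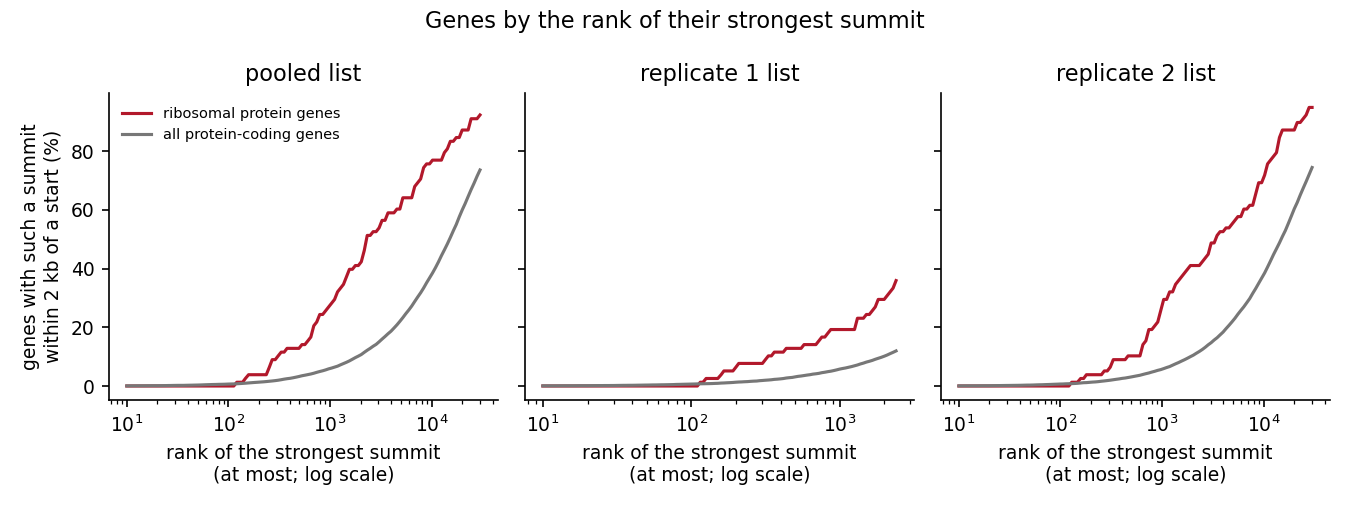
Share of genes (vertical axis, %) whose strongest summit within 2 kb of a start ranks at or above the value on the horizontal axis (log scale), for the pooled, replicate 1 and replicate 2 lists. The red line is the 78 ribosomal protein genes and the grey line all 19973 protein-coding genes; at rank 1000 of the pooled list they stood at 26.9% and 5.99%.

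By rank, 21 members (26.9%) had a pooled summit among the 1000 strongest, against 5.99% of all genes, and 50 (64.1%) among the 5000 strongest, against 22.5%. The median rank of the strongest pooled summit was 2186.5 over the 72 members that had one and 9541 over all genes that had one. Median signal was 24.0 against 17.1. In replicate 1 the median ranks were 828 and 1053, and in replicate 2 they were 2988.5 and 9723.

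Just below the optimal set came rps-16, with a pooled signal of 37.0 (rank 515) at 1749 bp upstream, and 16.9 in replicate 1 and 12.8 in replicate 2. For rps-26 it was 35.1 (rank 580) at 469 bp upstream and beside a small RNA gene, with 14.2 and 18.9. The pooled signal was 33.7 for rpl-27 (rank 624), 32.8 for rpl-36.A (rank 670, 468 bp upstream) and 32.8 for rpl-11.2 (rank 673). The rpl-27 summit lay 770 bp downstream of the start, past the gene's end and in the 222 bp before egl-30. In replicate 2 the strongest rpl-27 summit was another one, 1695 bp downstream. Opposite-strand genes start 2002 bp upstream of rps-16 (mut-15), 457 bp upstream of rps-26 (tmem-107) and 633 bp upstream of rpl-36.A (nuo-1). Each of these starts was nearer to the pooled summit than the member's own. Neither rpl-36.A nor rpl-11.2 had a summit in the replicate 1 list.

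At the other end, 6 members had no pooled summit within 2 kb, and 4 of them (rpl-10, rpl-25.1, rps-4 and rps-7) had none in any list. The other 2, rpl-37 and rps-3, had one in replicate 2 only. They code for parts of both subunits and did not share a neighbourhood, since rpl-10 and rps-3 had a close gene downstream, rpl-25.1 and rps-7 one upstream, and rps-4 and rpl-37 neither. A missing summit says only that no peak was listed there.

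Some members shared a peak. Of the 72, 68 distinct summits were the strongest, because 4 summits served a pair each. These were rps-10 with rpl-24.1 (signal 24.1, rank 2167), rpl-41.1 with rpl-41.2 (27.0, rank 1359), rps-14 with rpl-36 (18.8, rank 6498) and rpl-39 with rps-30 (21.4, rank 3713). How the authors treated reads that match near-identical copies, such as those of rpl-41.1 and rpl-41.2, is not stated in the labels or file lists.

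Among the 72 members with a pooled summit, the strongest one lay 0 to 500 bp upstream in 36 (50.0%), against 20.6% of all genes with a summit, and within 500 bp on either side in 42 (58.3%), against 33.8%. In bins of 200 bp, any pooled summit was found 200 to 400 bp upstream in 27 of 78 members (34.6%) against 8.89% of all genes, and just upstream of the start, at 0 to 200 bp, in 12 (15.4%) against 9.55%. In the first 200 bp downstream the shares were 6.41% and 6.58%. In the bin 200 to 400 bp upstream, replicate 1 gave 11 members (14.1%) against 1.37%, and replicate 2 gave 24 (30.8%) against 8.67%. Among the 62 members with a pooled summit and no optimal peak, the strongest summit lay 0 to 500 bp upstream in 27 (43.5%), against 19.7% of such genes overall. Any pooled summit was found 200 to 400 bp upstream in 21 of the 68 members without an optimal peak (30.9%), against 8.45% of such genes, and a replicate 1 summit in 6 (8.82%), against 0.877%. In all genes the pooled share was highest in the 200 bp next to the start, so the members' summits stood one bin further out. Annotated starts of trans-spliced C. elegans genes often mark the splice site and not the place where transcription begins, which bears on any such distance.

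**Figure D3:**
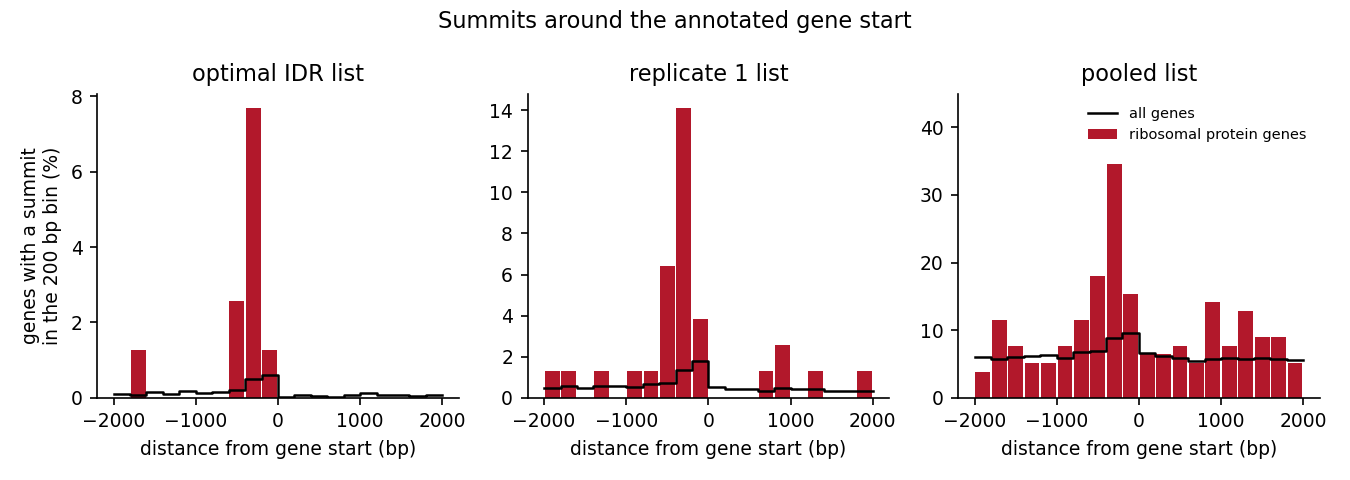
Share of genes (vertical axis, %) with a summit in each 200 bp bin around the gene start (horizontal axis, bp, negative upstream) in the optimal, replicate 1 and pooled lists. Red bars are the 78 ribosomal protein genes and the black line all protein-coding genes; the bin 200 to 400 bp upstream held 7.69% of members in the optimal, 14.1% in the replicate 1 and 34.6% in the pooled list.

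The surroundings of the members differed from those of other genes. Members were short, with a median gene length of 753.5 bp against 2027 bp, and had on average 1.55 other genes with a start within 2 kb, against 0.695. The number of starts was alike, with 1 start in 74.4% of members and 72.6% of all genes. Split by the number of other genes within 2 kb, an optimal peak was found in 2 of 8 members with none, 2 of 29 with 1, 4 of 32 with 2 and 2 of 9 with 3 or more. The shares over all genes were 1.52, 3.91, 5.24 and 7.29%. In replicate 1 the members' shares were 62.5, 34.5, 28.1 and 44.4%, against 9.30, 13.2, 16.2 and 23.4%. In replicate 1 the member share was above that of all genes at each number of neighbours, but did not rise with that number as the share over all genes did. The part of gene length in these counts was not tested.

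Small and large subunit genes were set side by side. An optimal peak was present at 5 of 31 small subunit genes (16.1%) and 5 of 47 large subunit genes (10.6%), a difference of 5.49 percentage points with a 95% interval of -9.50 to 23.1. Replicate 1 had a summit at 15 (48.4%) and 13 (27.7%), replicate 2 at 29 and 45, and the pool at 28 and 44. The median pooled ranks were 2151.5 and 2238. The interval for optimal peaks spans 0, so a difference in either direction could not be told from these numbers.

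Members that carry snoRNA genes came to 13, with 19 snoRNA genes among them. Of these, rpl-15 and rps-12 had an optimal peak (15.4%), against 8 of the 65 other members (12.3%), a difference of 3.08 points with an interval of -11.9 to 30.6. The next hosts by pooled rank were rpl-7 (signal 32.7, rank 680), rpl-7A (29.4, rank 965) and rps-29 (26.1, rank 1552). For rpl-7 the pooled summit lay 1567 bp downstream of the start, past the end of the gene, and the strongest summit was 525 bp upstream in replicate 1 and 1599 bp downstream in replicate 2. At rpl-7A, with summits 34 to 40 bp upstream in all 3 lists, signal was 18.95 in replicate 1 and 10.8 in replicate 2. At the snoRNA genes themselves, 0 of 19 had an optimal summit within 200 bp and 4 (21.1%) had a pooled one. Of the 327 other nuclear snoRNA genes, 47 (14.4%) had an optimal and 127 (38.8%) a pooled summit. The optimal summit of rpl-15 lay 594 bp from the nearest snoRNA gene inside it, and that of rps-12 lay 238 bp away, just past the 200 bp limit.

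A protein-coding gene on the same strand and at most 500 bp away made a member operon-like, a matter of distance only and not of a known operon. There were 34 such members, and 5 (14.7%) had an optimal peak, against 5 of the other 44 (11.4%), a difference of 3.34 points with an interval of -11.7 to 20.04. All 5 (rpl-15, rpl-20, rps-12, rps-20 and rps-28) had the close gene downstream and none upstream, as did 26 members in all. None of the 8 members with a close gene upstream had an optimal peak, which allows a share of up to 36.9%. The strongest pooled summit lay 0 to 500 bp upstream in 16 of the 24 members (66.7%) that had a summit and a close gene only downstream, and in 0 of the 6 that had a summit and a close gene upstream. Over all genes with a pooled summit the share was 20.6%, so a count of 0 among 6 says little. The 6 summits lay 1886 bp upstream of rpl-16 and 1749 bp upstream of rps-16, and downstream of the start in the others. These were rps-17 (39 bp), rpl-19 (231 bp), rpl-27 (770 bp) and rps-2 (1006 bp). In replicate 2, 1 of 6 such members had its strongest summit 0 to 500 bp upstream.

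**Figure D4:**
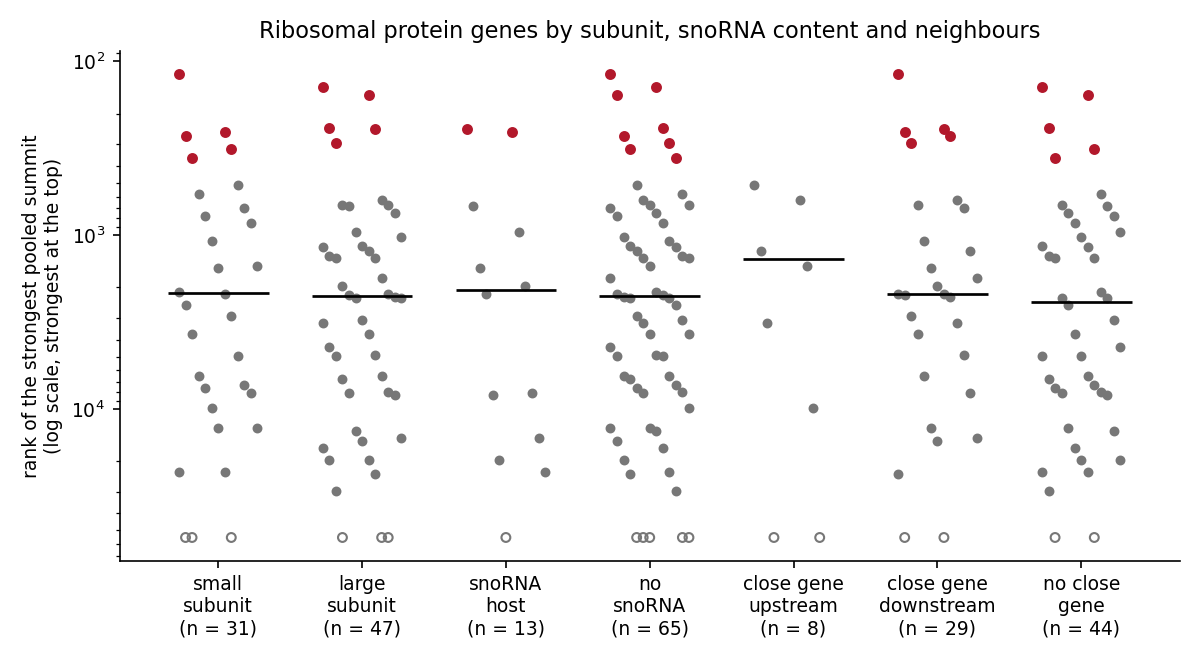
Rank of the strongest pooled summit within 2 kb (vertical axis, log scale, strongest at the top) for each ribosomal protein gene, by subunit, snoRNA content and close genes on the same strand; 3 genes with close genes on both sides appear in both columns. Red points have an optimal peak, open circles at the bottom have no pooled summit, and lines are medians of the ranked genes, 2151.5 for the small and 2238 for the large subunit.

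Other genes of protein synthesis gave lower or similar counts within 2 kb of a start. The 6 ribosomal protein genes and close relatives with other names had no optimal peak, which allows a share of up to 45.9%. In the pool, rla-0, a protein of the ribosomal stalk, reached 26.1 (rank 1560), ubl-1, a ubiquitin-like fusion to a ribosomal protein, 22.6 (rank 2917) and rla-1, another stalk protein, 22.4 (rank 3057). Weaker were rla-2 (18.6, rank 6908), rack-1 (16.9, rank 10033) and ubq-2 (16.8, rank 10181). Of 41 translation factor genes, 4 had an optimal peak (9.76%): eif-3.C (signal 112, 252 bp upstream), eif-3.D (67.7, 268 bp), eif-1.A (45.6, 380 bp) and the elongation factor gene eef-1A.1 (39.1, 407 bp). All 4 summits lay in the stretch upstream where the ribosomal protein summits lay. Of 70 mitochondrial ribosomal protein genes, 6 had one (8.57%). Close to the start were the summits of mrpl-39 (113, 106 bp upstream) and mrps-34 (91.5, 128 bp). Further upstream were those of mrpl-12 (68.8, 544 bp), mrpl-23 (90.1, 954 bp), mrps-28 (208, 1024 bp) and mrps-6 (41.1, 1286 bp). The summits of mrpl-23, mrps-28 and mrps-6 lay beside a small RNA gene, unlike any optimal summit of the members. Of 31 aminoacyl-tRNA synthetase genes, 2 had one (6.45%), ears-2 (303, 34 bp upstream) and fars-1 (90.1, 1377 bp downstream of its start). The summit of fars-1 was the one of mrpl-23, beside a small RNA gene. Of 32 nucleolar and ribosome assembly genes, 1 had one (3.13%), rpoa-12, a subunit of the polymerase for ribosomal RNA, at 1984 bp. In replicate 1 the share was 34.3% for mitochondrial ribosomal proteins, 37.5% for nucleolar genes and 33.3% for the genes with other names. It was 24.4% for translation factors and 16.1% for the synthetases, against 35.9% for members and 11.9% for all genes. Pooled shares ran from 80.6% for the synthetases to 93.8% for nucleolar genes and 100% for those with other names, against 92.3% for members. Median pooled ranks were 4382 for mitochondrial ribosomal proteins, 4732 for translation factors, 2977 for nucleolar genes and 6754 for the synthetases, and 2186.5 for the cytosolic ribosomal protein genes. For the 6 genes with other names the median was 4982.5.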

How the data were processed

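Peaks of anti-GFP ChIP-seq in 2 samples of 1 group were analysed. Per the deposited file lists, the authors made each replicate list from that replicate's alignments and a control, the pooled list from both, and the optimal IDR list from the 3. The aligner, the peak caller and the threshold for IDR are not stated there or in the labels. The deposited signal of each peak is the authors' value, and ranks were taken from it within a list. The deposited q-value column falls below 0 in places and was used as a score. Each deposited summit position, on ce11, was set against transcript starts of Ensembl release 115. The ce10 lists were not used, because no annotation of that build was used here. Sequence came from the RefSeq genome of the same assembly.

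Shares, medians and exact 95% intervals were computed with Python 3.11.15, numpy 2.4.6, pandas 2.3.3 and scipy 1.17.1, and figures were drawn with matplotlib 3.10.9. No test was run, since there was 1 group. Intervals of a difference were built from the Wilson intervals of both shares (Newcombe's method). Summit assignment was checked on planted summits. The genes, subgroups, lists and word rules were chosen with earlier results of these data known. Genes named were members with an optimal peak, the 10 best pooled ranks, the 5 best snoRNA hosts, members at the 2 kb limit, and up to 4 genes of each related list. The genes rpl-36.A, rpl-27, rps-16, rps-26, rpl-11.2, rla-0, ubl-1 and rla-1, those that shared a summit and those without one were added after their values were seen. So were rla-2, rack-1, ubq-2, mrpl-12, mrps-6 and the members with a close gene upstream. The neighbours named for rps-16, rps-26, rpl-27 and rpl-36.A were also added then. Reads per peak are unknown.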

Additional observations from a re-analysis of the deposited data

How the results depend on the processing

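Of 52 alternatives to 8 counts, medians and differences, 4 moved a count or median, 7 reversed a difference and 41 did neither. A count or median was moved when it changed by a ratio above 1.5. A difference was judged by its sign only, whatever its size. Optimal peaks within 2 kb were at 5 members when each summit went to its nearest start only, against 1.72% of all genes. In the strongest 230 optimal peaks they were at 3 members, against 1.47% of all genes. The 460 strongest peaks of a single replicate, to which no IDR threshold applies, were also used. They gave 8 members in replicate 2, against 2.88% of all genes, and 10 in replicate 1, against 2.83%. The median rank was 828 in replicate 1 alone and 2988.5 in replicate 2 alone, and the former cannot be compared with the main value, since that list has 2401 peaks and the median over all genes fell with it to 1053. Strongest summits within 500 bp were at 18 members in replicate 1 alone, 64.3% of those with a summit there, against 41.9% of all such genes. In replicate 2 alone they were at 39 members (52.7%), against 32.7%. The small minus large difference was 0.0686 points with the nearest start only and -1.03 points in the strongest 230 peaks. It ranged from -0.961 to 5.49 with 1 replicate left out. The snoRNA host difference was 1.54 points with the nearest start only and -4.62 points in the strongest 230. It ranged from -3.08 to 3.08 with 1 replicate left out. The operon-like difference was 5.61 points with summits limited to 500 bp from a start. It was -0.936 points with the nearest start only, -1.60 in the strongest 230 and -0.833 with neighbours up to 1000 bp away. The causes were not tested, and each of these 3 differences changed sign under at least 1 alternative. No paired analysis was possible because there was 1 group.

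The lists hold no read counts, so depth sets no interval on a peak. Only 10 members carried an optimal peak, 5 of them nearer to another gene's start. The control, other factors and expression were not analysed here.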
